A study of Mus musculus with 29 samples.

Results

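The genes described here are 38 genes of the extracellular matrix and of the proteases that cut it, chosen by name as collagens, proteoglycans, basement membrane parts, matrix proteases with their inhibitors, and perineuronal net parts. All 38 were among the 18240 genes measured, and all 38 passed the filter on low values. They were followed in prefrontal cortex of C57BL/6J mice at postnatal day 40, profiled by bulk RNA sequencing of poly(A) RNA. Mice heterozygous for the K228E allele of Tbr1, which encodes a T-box factor that specifies deep-layer neurons of the cortex, are called HT, and their wild-type counterparts WT. WT mice received vehicle (4 females, 4 males). 3 HT females and 3 HT males received vehicle as well. Another 4 HT females and 4 HT males were given fluoxetine, an antidepressant that blocks serotonin reuptake, and 3 HT females and 4 HT males were given lithium, used to stabilise mood. No WT mice received a drug, and how much was given, by which route and for how long is not stated in the labels. The 29 libraries carry replicate numbers, but the labels do not say that each is a separate mouse, so p-values measure the spread between these libraries.

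The matrix of the brain has compartments with different makers. Fibroblasts of the meninges, the membranes around the brain, lay down fibril-forming collagens and small leucine-rich proteoglycans. Endothelial cells, pericytes and astrocytes build the basement membrane around vessels from type IV collagen, laminins and nidogens. Perineuronal nets are coats of chondroitin sulphate proteoglycans, link proteins and tenascins around neurons, above all around fast-spiking interneurons that contain parvalbumin. Matrix metalloproteinases and ADAMTS proteases cut these components, and the TIMP proteins inhibit the proteases. In a bulk sample, fewer cells of a type and less RNA per cell cannot be told apart.

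Libraries held between 22.81 M and 31.71 M reads. Tbr1 had a median of 3035 normalised counts in WT vehicle, against 3919 for HT vehicle, 4275 under fluoxetine and 4533 under lithium. Its level does not test which allele a mouse carries. Defining markers of cortical glutamatergic neurons were present in every group, their summed level lying between 116205 and 164333 normalised counts. Markers of neighbouring tissue varied widely: the summed level of 8 olfactory markers ran from 1130 in HT lithium male 3 to 16297 in WT vehicle male 3, and that of 10 striatal markers from 3956 in HT fluoxetine female 1 to 20781 in HT fluoxetine female 2. A library was marked as high where the mean of either list exceeded the median over libraries by more than 1 on the log2 scale (9 libraries), and as low where the olfactory mean fell short of it by more than 1 (8 libraries). Calls of members against WT that were lost without these libraries are named, and Acan is given both ways. Differences that were not called are mostly given from the main fit alone.

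Levels of different genes were compared per kilobase of exon, as normalised counts averaged over all 29 libraries. The protease inhibitor gene Timp2 was highest at 2018 per kilobase, followed by Sparc, a collagen-binding glycoprotein of glia and vessels, at 1420. Next came the net proteoglycans brevican (Bcan, 1413) and neurocan (Ncan, 1136). Col6a1, a chain of the microfibrillar type VI collagen, stood at 1064, and the membrane-anchored metalloproteinase gene Mmp17 at 1026. The fibril collagens lay far below, with Col1a2 at 70.6, Col1a1 at 65.1 and Col3a1 at 25.4 per kilobase. The lowest member was aggrecan (Acan, 21.1), a proteoglycan of mature nets, just under the gelatinase gene Mmp2 (22.0). Perineuronal members therefore stood at both ends of the order of levels, and meningeal members mostly in its lower part.

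**Figure D1:**
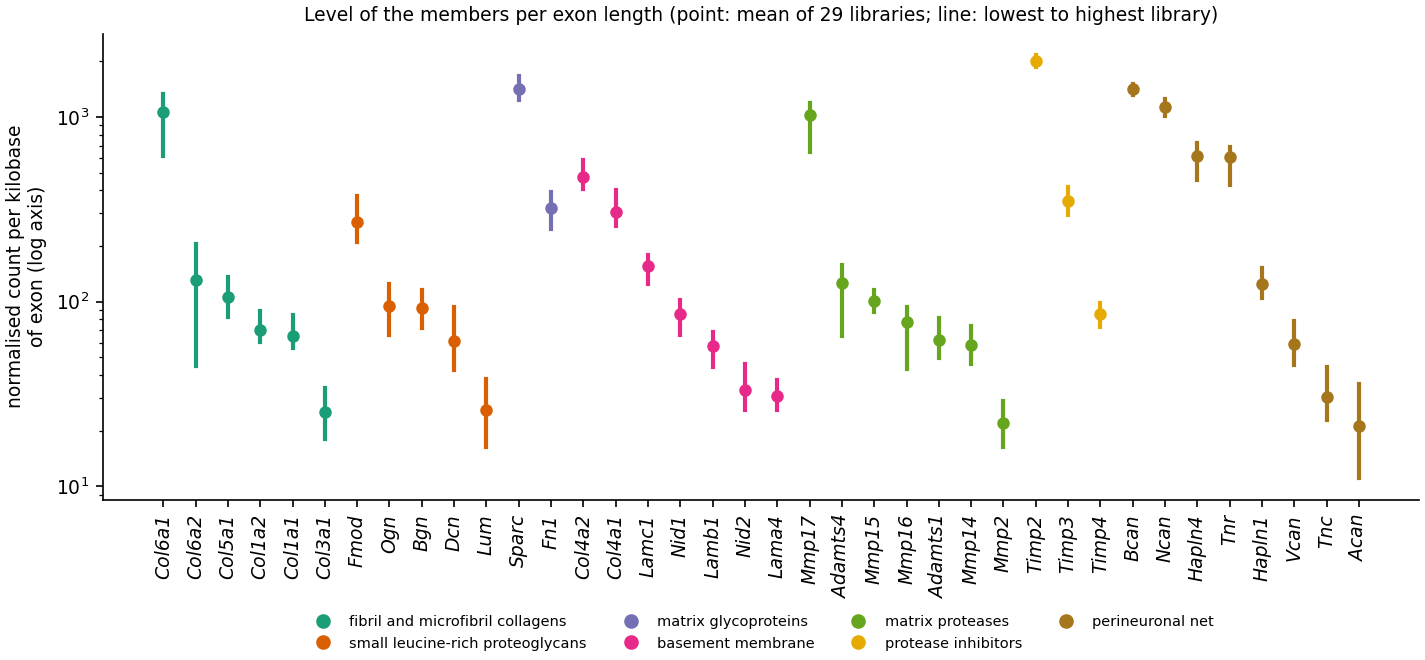
Level of each member as normalised count per kilobase of exon on a log axis, grouped by role; points are means of 29 libraries and lines run from the lowest to the highest library. Timp2 is highest at 2018 and Acan lowest at 21.1, and the lines of Col6a2 and Acan are the longest.

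Members also differed in how much they varied between libraries. Col6a2, the partner chain of Col6a1, had its highest library at 4.55 times its lowest, and Acan at 3.23 times. The steadiest were Bcan, at 1.15 times, and Timp2, at 1.17 times. The spread within groups of genotype, treatment and sex was 0.505 (SD, log2) for Acan, 0.392 for Col6a2 and 0.301 for Lum, against 0.0373 for Timp2. A difference of the same size was thus resolved far better in Timp2 than in Acan.

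The genotype comparison, HT vehicle against WT vehicle, asked what the allele changed without a drug. None of the 38 members passed the threshold of 0.05 in the limma test on log2(value + 1), adjusted by Benjamini-Hochberg over 17881 genes, while 8 had an unadjusted p under 0.05. Of all genes tested, 37 were called, or 0.207%, and 2198 had an unadjusted p under 0.05. On the recovered reads edgeR called 0 members and DESeq2 called 1, Mmp14. The members leaned lower, with 25 of 38 negative and a median log2 difference of -0.05, where 49.9% of all genes were negative with a median of 0.00. The 11 meningeal members (collagens I, III, V and VI and the small leucine-rich proteoglycans) stood at a median of -0.17 (9 negative), and the 8 perineuronal members at -0.01 (4 negative).

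Fluoxetine in HT mice, set against vehicle, changed no member past the threshold, nor any of the 17881 genes (0.0%). 4 members had an unadjusted p under 0.05, edgeR and DESeq2 called 0 members, and the median over members was 0.00. Lithium against vehicle in HT likewise gave 0 members called (0.0% of all genes), with 2 members under an unadjusted 0.05, 0 called by edgeR or DESeq2, and a median of -0.04. Between lithium and fluoxetine, 0 members and 0.0% of all genes were called, again 0 by edgeR and DESeq2, with 2 members under an unadjusted 0.05. Over all genes, 1397, 2030 and 626 had an unadjusted p under 0.05 in these 3 comparisons, edgeR called 0 in each, and DESeq2 called 2, 32 and 2. HT vehicle libraries enter both drug comparisons and the genotype comparison, so these differences share samples.

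Drug-treated carriers were also set against WT vehicle, a comparison that holds genotype and drug together. In HT lithium against WT vehicle, 3 of 38 members were called, where 340 of all genes were (1.9%): Mmp14 and Sparc fell and Timp2 rose. In HT fluoxetine against WT vehicle, 1 member was called, Timp2, where 34 of all genes were (0.19%). Over any difference between the 4 groups, an F test called Mmp14 and Timp2, against 113 of all genes (0.632%). The 38 members were chosen with earlier results of these data known, so their shares cannot be read as enrichment over all genes. Both comparisons against WT use the same 8 WT libraries. All 8 olfactory markers were lower in HT lithium than in WT, with a median of -1.21, and their part in the lithium differences was tested only through the fits named with each gene. Over all 38, the median difference from WT was -0.11 under lithium, with 25 negative and 15 under an unadjusted p of 0.05, and -0.07 under fluoxetine, with 31 negative and 7 under an unadjusted p of 0.05. Of all genes, 51.6% were negative and 3331 were under an unadjusted 0.05 in the lithium comparison, and 51.3% and 1655 in the fluoxetine comparison.

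**Figure D2:**
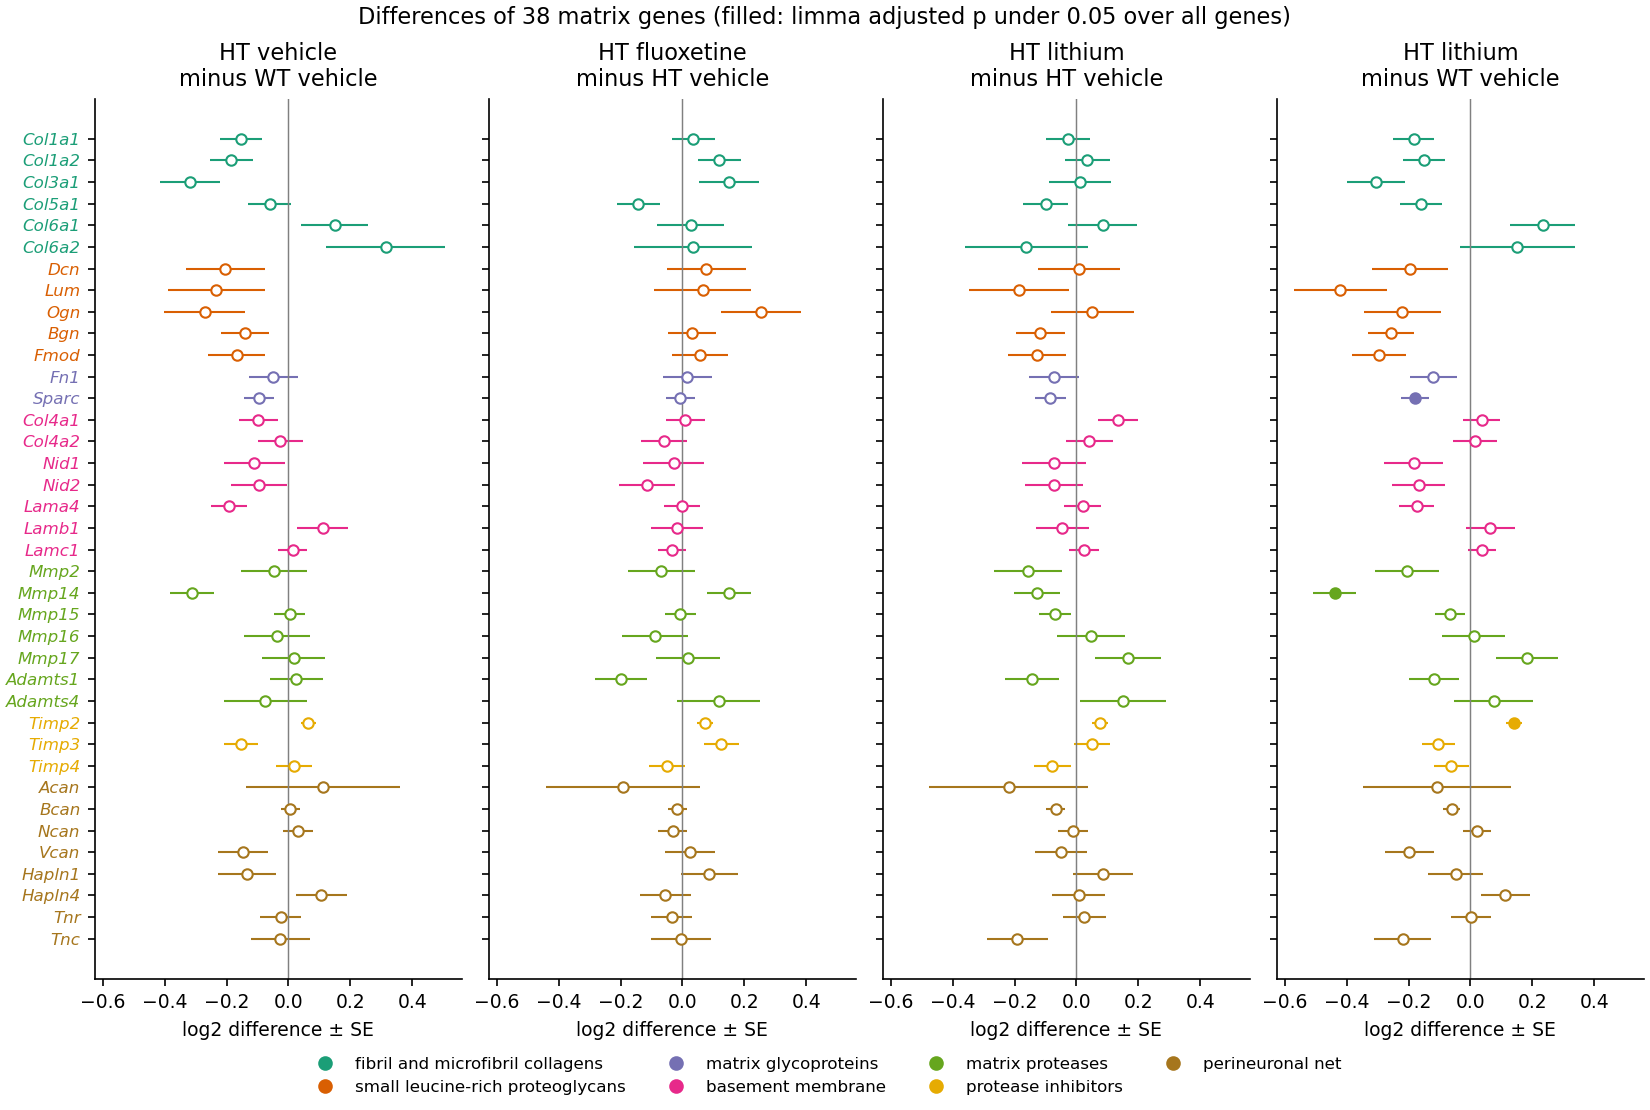
Log2 difference of each of the 38 members with its standard error, in 4 comparisons, coloured by role; filled points passed an adjusted p of 0.05 in limma. Filled points appear only for HT lithium minus WT vehicle (Mmp14, Timp2 and Sparc), and the collagens of types I, III and V and the leucine-rich proteoglycans lie left of 0 in the first and last panel.

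Among the proteases, Mmp14 carried the clearest difference. It encodes the membrane-type metalloproteinase MT1-MMP, which cuts fibrillar collagen and activates pro-MMP2 at the cell surface, and lies on chromosome 14 at 54431612 to 54445364 (GRCm38, plus strand). Its normalised count ran from 338.0 to 437.5 (median 419) in WT vehicle and from 272.7 to 337.9 (median 287) in HT lithium. HT vehicle lay between 302 and 357 (median 320), and HT fluoxetine between 278 and 434 (median 370). All 7 HT lithium libraries thus lay below all 8 WT libraries, though the gap between HT lithium male 1 and WT vehicle female 1 was under 1 count. Such a complete separation occurred for 79 of all genes tested (0.442%).

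On the log2 scale Mmp14 fell in HT lithium against WT vehicle, at -0.44 ± 0.069 (SE; limma adjusted p = 0.00102), or 1.36-fold. HT vehicle stood at -0.31 ± 0.072 from WT (adjusted p = 0.0583), and HT lithium at -0.13 ± 0.074 from HT vehicle (adjusted p = 0.518). Neither part passed alone in the main fit. Both share the HT vehicle libraries, and their sizes were not tested against each other. HT fluoxetine stood at 0.15 ± 0.072 from HT vehicle (adjusted p = 0.632) and at -0.16 from WT (adjusted p = 0.454). Lithium against fluoxetine was -0.28, with an unadjusted 95% interval from -0.42 to -0.14 (adjusted p = 0.985). Over 44 other settings that difference ran from -0.36 to -0.22 and never passed, the lowest adjusted p being 0.0624. The lithium call against WT held in each of 44 other settings, with adjusted p between 1.55e-06 and 0.0402. The genotype difference passed in 6 of them, among them DESeq2 (adjusted p = 0.00805), the fit with olfactory and striatal marker means as covariates (0.0147), and the fits without HT fluoxetine female 1, HT fluoxetine female 2 or WT vehicle male 4 (between 0.0273 and 0.0477).

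The stretch before the start of Mmp14 is shown beside those of 3 meningeal members that came close to the threshold in the same comparison (Bgn, Fmod and Col3a1), since all 4 were lower in HT lithium than in WT. Each is 250 bases directly upstream of the RefSeq start on the gene's strand, from RefSeq's table for GRCm38.p6, in which 26 of 38 members had an entry. Capitals mark matches, on either strand, to the GC box GGGCGG, the CCAAT box CCAAT, the TATA motif TATAAA and the AP-1 motif TGANTCA; in Mmp14 a reversed CCAAT box overlaps a GC box, and in Bgn a pair of reversed GC boxes overlap.
Mmp14, chr14:54431348-54431597, plus strand: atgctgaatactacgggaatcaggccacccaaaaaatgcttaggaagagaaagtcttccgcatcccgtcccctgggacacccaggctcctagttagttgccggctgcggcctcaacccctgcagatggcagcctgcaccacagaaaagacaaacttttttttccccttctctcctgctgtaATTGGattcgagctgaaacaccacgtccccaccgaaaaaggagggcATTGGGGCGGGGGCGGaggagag
Bgn, chrX:73483351-73483600, plus strand: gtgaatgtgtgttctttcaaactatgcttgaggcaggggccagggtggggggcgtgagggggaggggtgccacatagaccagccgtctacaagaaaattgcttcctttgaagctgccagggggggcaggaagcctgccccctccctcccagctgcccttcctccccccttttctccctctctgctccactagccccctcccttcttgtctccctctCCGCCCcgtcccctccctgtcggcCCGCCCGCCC
Fmod, chr1:134037004-134037253, plus strand: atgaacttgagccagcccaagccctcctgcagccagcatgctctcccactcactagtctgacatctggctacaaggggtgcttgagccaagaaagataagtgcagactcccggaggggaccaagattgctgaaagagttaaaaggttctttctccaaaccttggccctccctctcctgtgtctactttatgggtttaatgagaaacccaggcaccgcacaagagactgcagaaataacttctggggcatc
Col3a1, chr1:45311288-45311537, plus strand: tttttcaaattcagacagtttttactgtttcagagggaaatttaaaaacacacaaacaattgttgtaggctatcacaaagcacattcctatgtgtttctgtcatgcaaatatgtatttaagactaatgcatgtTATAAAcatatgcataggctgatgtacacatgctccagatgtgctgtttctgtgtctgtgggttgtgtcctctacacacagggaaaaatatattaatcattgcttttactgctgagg
The Mmp14 stretch held 2 GC boxes and 2 CCAAT boxes, that of Bgn 3 GC boxes, that of Col3a1 1 TATA motif and that of Fmod none of the 4 motifs. Among 32851 stretches of the same length in the table, 32.7% held a GC box, 33.8% a CCAAT box, 12.4% the TATA motif and 6.75% the AP-1 motif. No motif was shared by all 4 genes.

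The other proteases did not pass in any comparison. Mmp2, the gelatinase that MT1-MMP activates, had a median of 78.6 in WT vehicle, against 75.4 for HT vehicle, 74.1 under fluoxetine and 64.2 under lithium, with overlapping ranges, and HT lithium stood at -0.20 ± 0.103 from WT (limma adjusted p = 0.288). Mmp17, whose product is held on the membrane by a lipid anchor, stood at 0.18 ± 0.099 in the same comparison (adjusted p = 0.318), the highest difference of its role. Over 44 other settings that difference ran from 0.0096 to 0.25. Counts of Mmp17 ran from 4723 to 7578 (median 7186) in WT and from 6424 to 7902 (median 7549) in HT lithium, so the groups overlapped. Adamts1, a secreted protease that cuts versican and aggrecan, was the lowest protease for fluoxetine against vehicle in HT, at -0.20 ± 0.085 (adjusted p = 0.595). Its counts lay between 264 and 366 (median 296) in HT fluoxetine and between 317 and 389 (median 348) in HT vehicle. Adamts4, another aggrecan-cutting protease, stood at 0.12 for fluoxetine and 0.15 for lithium against vehicle (adjusted p = 0.861 and 0.695). Its value is uncertain, as are those of other members described below that overlap a gene on the opposite strand, since the strand setting of the counting is not given in the sources used here. Mmp15 and Mmp16, both membrane-type proteases, differed from WT by -0.07 and 0.01 under lithium.

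Timp2 rose in both groups of drug-treated carriers against WT. It encodes a secreted inhibitor that also takes part in the activation of pro-MMP2 by MT1-MMP, and lies on chromosome 11 at 118301069 to 118355740 (minus strand). WT libraries were tightly grouped between 7223 and 7497 (median 7450). HT vehicle lay between 7432 and 7957 (median 7830), HT fluoxetine between 7591 and 8426 (median 8154) and HT lithium between 7712 and 8441 (median 8191). Every drug-treated library lay above every WT library, while HT vehicle overlapped WT through HT vehicle female 1. A complete separation of HT fluoxetine from WT occurred for 11 of all genes tested (0.0615%).

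The rise of Timp2 was small, at 0.14 ± 0.024 under lithium (limma adjusted p = 0.00284, 1.10-fold) and 0.14 under fluoxetine (adjusted p = 0.00839, 1.10-fold). HT vehicle stood at 0.06 ± 0.025 from WT (adjusted p = 0.284), fluoxetine at 0.07 (adjusted p = 0.478) and lithium at 0.08 (adjusted p = 0.304) from HT vehicle; none of these passed alone. Lithium and fluoxetine differed by 0.00, with an unadjusted 95% interval from -0.05 to 0.05. Quantile normalisation took the lithium difference to 0.08 (adjusted p = 0.0651). With the meningeal marker mean as covariate it was 0.12 (adjusted p = 0.0578). The fluoxetine difference kept its size of 0.14 with only the groups compared in the fit, but not its call (adjusted p = 0.0766). With the 9 libraries high in these markers left out, the differences were 0.14 for lithium and 0.16 for fluoxetine (adjusted p = 0.0859 and 0.127), and without the 8 low in olfactory markers 0.13 and 0.12 (adjusted p = 0.161 and 0.485).

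**Figure D3:**
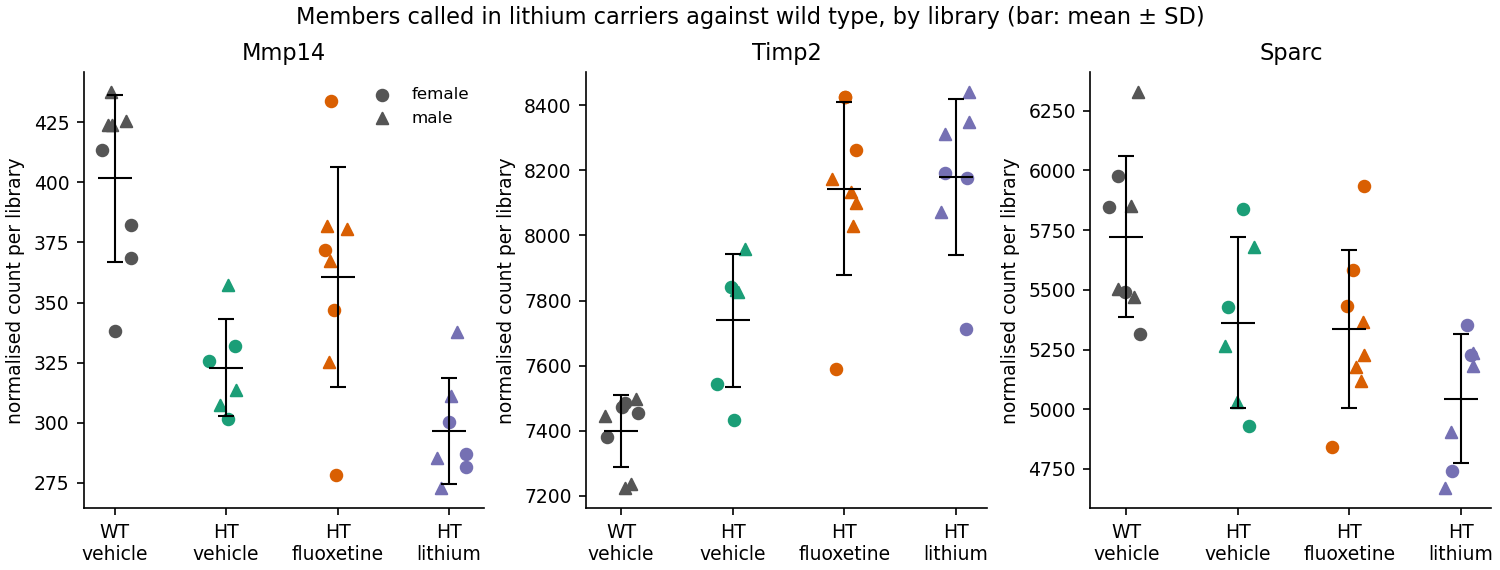
Normalised counts of Mmp14, Timp2 and Sparc in each library by group, circles for females and triangles for males, with mean and SD as bars; the axes do not start at 0. HT lithium lies wholly below WT vehicle for Mmp14 and wholly above it for Timp2, whereas the groups overlap for Sparc.

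The other inhibitors took different courses. Timp3, which binds to the matrix and also inhibits ADAMTS proteases, stood at -0.15 ± 0.056 for genotype (limma adjusted p = 0.236), 0.13 ± 0.056 for fluoxetine (adjusted p = 0.600) and 0.05 for lithium against HT vehicle (adjusted p = 0.769). Its libraries lay between 2624 and 3396 (median 2996) in WT, 2404 and 2864 (median 2774) in HT vehicle, 2591 and 3220 (median 3013) in HT fluoxetine and 2407 and 2921 (median 2781) in HT lithium. All 4 ranges overlapped. Timp3 shares 1733 exon bases with the synapsin gene Syn3 on the opposite strand, and Timp4 shares 90 with Syn2, so both values are uncertain. Timp4 differed from HT vehicle by -0.08 under lithium and -0.05 under fluoxetine (adjusted p = 0.631 and 0.861).

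Sparc, on chromosome 11 at 55394500 to 55423183 (minus strand), was the third member called in HT lithium against WT. Its counts ran from 5315 to 6327 (median 5675) in WT, from 4929 to 5838 (median 5346) in HT vehicle, from 4841 to 5936 (median 5297) in HT fluoxetine and from 4669 to 5353 (median 5182) in HT lithium. HT lithium and WT overlapped only through HT lithium female 1 and WT vehicle female 1. The difference was -0.18 ± 0.046 (limma adjusted p = 0.0425), a level 1.13-fold lower, and it passed in 29 of 44 other settings. Among vessel markers, Cldn5 (-0.28), Vtn (-0.26) and Pdgfrb (-0.20) were called lower in the same comparison, where 1.9% of all genes were called. They are single genes from lists of 11 endothelial and 9 mural markers. As a list, the 11 endothelial markers had a median sum of 12498 in WT and 12522 in HT lithium. The 9 mural markers stood at 7301 and 7196. The part of vessel cells in the Sparc value was not tested. The Sparc call was lost without the intensity trend (adjusted p = 0.0656), with olfactory and striatal means as covariates (-0.11, adjusted p = 0.206), with the meningeal mean as covariate (-0.18, adjusted p = 0.215), without the libraries with high or with low markers (adjusted p = 0.364 and 0.382) and without any 1 of HT fluoxetine male 2, HT lithium females 2 and 3, HT lithium males 1 and 3, WT vehicle females 2, 3 and 4 and WT vehicle males 1 and 3 (between 0.0512 and 0.127). Fibronectin (Fn1), a glycoprotein that links cells to collagen, stood at -0.12 ± 0.076 under lithium against WT (adjusted p = 0.398), at 0.06 with the meningeal covariate, and at -0.05 for genotype (adjusted p = 0.859).

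The fibril collagens were lower in every group of carriers than in WT by their medians, without a call. Col1a1 and Col1a2 encode the chains of type I collagen, and Col3a1 that of type III, which accompanies it in soft tissue. Col3a1 ran from 234 to 334 (median 273) in WT, 176 to 261 (median 227) in HT vehicle, 224 to 290 (median 239) in HT fluoxetine and 176 to 294 (median 223) in HT lithium. The ranges overlapped, and the differences were -0.32 ± 0.097 for genotype (limma adjusted p = 0.149), 0.15 for fluoxetine (adjusted p = 0.719), 0.01 for lithium (adjusted p = 0.980) and -0.31 ± 0.093 for HT lithium against WT (adjusted p = 0.0860). Col1a1 had a median of 459 in WT, against 406 for HT vehicle, 421 under fluoxetine and 391 under lithium, with HT lithium at -0.18 ± 0.066 from WT (adjusted p = 0.143). Col1a2 stood at -0.19 ± 0.069 for genotype (adjusted p = 0.250) and at -0.15 for HT lithium against WT (adjusted p = 0.228). Col5a1, the type V chain that starts fibrils, was the lowest collagen for fluoxetine, at -0.14 ± 0.070 (adjusted p = 0.636), and shares 99 exon bases with 2810430I11Rik on the opposite strand.

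Type VI collagen, which forms beaded microfibrils, went the other way and was the noisiest of the collagens. Col6a2 was the highest member for genotype, at 0.31 ± 0.192 (limma adjusted p = 0.538), and Col6a1 for HT lithium against WT, at 0.23 ± 0.104 (adjusted p = 0.231). Their spread in WT followed the sex label: Col6a1 lay between 4855 and 5442 in the 4 WT females and between 2698 and 4121 in the 4 WT males, and Col6a2 between 1036 and 1626 in the females and between 374 and 895 in the males. Olfactory marker means lay between 0.91 and 1.98 (log2, centred) in the WT males and between -1.98 and 1.15 in the WT females, and the part of neighbouring tissue in this split was not tested. No such split was seen in the carriers given vehicle, where Col6a1 lay between 3233 and 5333 in 3 females and between 4060 and 5313 in 3 males. The genotype difference of females minus that of males was -0.73 ± 0.217 for Col6a1 and -0.82 ± 0.384 for Col6a2 (adjusted p = 0.847 for both).

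The small leucine-rich proteoglycans bind collagen fibrils and set their spacing, and all 5 were negative for genotype and for HT lithium against WT, though Dcn and Ogn turned positive in the latter with the meningeal marker mean as covariate (0.12 and 0.08). Lumican (Lum) had the lowest of all the collagens and proteoglycans in the latter, at -0.42 ± 0.151 (limma adjusted p = 0.138). Its counts were few, from 53.1 to 92.8 (median 71.2) in WT and from 44.0 to 62.1 (median 53.1) in HT lithium, and the groups overlapped. Biglycan (Bgn) lay between 548 and 702 (median 617) in WT and between 441 and 582 (median 498) in HT lithium, a difference of -0.26 ± 0.074 (adjusted p = 0.0699). Fibromodulin (Fmod) lay between 810 and 1234 (median 948) in WT and between 693 and 989 (median 784) in HT lithium, a difference of -0.30 ± 0.087 (adjusted p = 0.0768). Bgn, Fmod and Col3a1 passed on the recovered reads with DESeq2, and Fmod also without HT lithium male 1 (adjusted p = 0.0415) or WT vehicle male 4 (0.0335). Decorin (Dcn) stood at -0.20 ± 0.123 (adjusted p = 0.398). Mimecan (Ogn) was the highest member for fluoxetine against vehicle, at 0.25 ± 0.130 (adjusted p = 0.636), and the lowest proteoglycan of its role for genotype, at -0.27 ± 0.130 (adjusted p = 0.394).

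Markers of meningeal cells that are no members were lower in HT lithium than in WT, as were most of these collagens and proteoglycans. Type VI collagen was the exception and went the other way. The summed level of 18 meningeal markers lay between 27442 and 41755 normalised counts in WT, 22888 and 36879 in HT vehicle, 23577 and 36430 in HT fluoxetine and 21873 and 30333 in HT lithium, and none of the 18 had a group median of 0. In HT lithium against WT, 18 of 18 were negative with a median of -0.27 and 0 were called, 10 having an unadjusted p under 0.05. With the meningeal marker mean as covariate, the median of the 11 meningeal members went from -0.20 to -0.06 for HT lithium against WT and from -0.17 to -0.08 for genotype. In that fit Fmod stood at -0.07 (adjusted p = 0.761), Lum at -0.13 (0.834), Col3a1 at -0.18 (0.609) and Bgn at -0.13 (0.610), while Mmp14 stood at -0.34 (limma adjusted p = 0.0402). The amount of meninges in each dissection was not measured otherwise.

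Basement membrane genes passed in no comparison. Col4a1 and Col4a2 encode the main chains of vascular type IV collagen and lie head to head, with 22 shared exon bases on opposite strands. Col4a1 was the highest of the role for lithium against vehicle, at 0.13 ± 0.066 (limma adjusted p = 0.441), with counts from 2209 to 2646 (median 2402) in HT lithium and from 1975 to 2340 (median 2239) in HT vehicle. Col4a2 differed by 0.04 in the same comparison. Nidogen-1 (Nid1), which links laminin to type IV collagen, stood at -0.11 for genotype and -0.18 ± 0.095 for HT lithium against WT (adjusted p = 0.704 and 0.300), and Nid2 at -0.12 for fluoxetine against vehicle (adjusted p = 0.769). Nid2 shares 437 exon bases with Rtraf on the opposite strand and is uncertain. Lama4, the laminin chain of endothelium, was the lowest of the role for genotype, at -0.19 ± 0.059 (adjusted p = 0.149). It lay between 367 and 453 (median 406) in WT and between 342 and 395 (median 348) in HT vehicle, and the ranges overlapped. Lamb1 was the highest for genotype, at 0.11 (adjusted p = 0.636), and Lamc1 stood at 0.01. Of vessel markers, Cldn5 (-0.28) in endothelium and Vtn (-0.26) and Pdgfrb (-0.20) in mural cells fell in HT lithium against WT (limma adjusted p = 0.0227, 0.00912 and 0.0247). Of all genes, 1.9% were called there, and these markers are single genes of their lists. The lists as a whole moved less. The summed level of 11 endothelial markers had a median of 12498 in WT and 12522 in HT lithium. That of 9 mural markers had medians of 7301 and 7196. The part of vessel cells in the laminin and nidogen values was not tested.

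Perineuronal net genes gave no call in any comparison. Brevican (Bcan) and neurocan (Ncan) are the abundant proteoglycans of brain. Bcan lay between 5445 and 6125 (median 5856) in WT, 5592 and 6062 (median 5856) in HT vehicle, 5425 and 6130 (median 5779) in HT fluoxetine and 5347 and 5870 (median 5518) in HT lithium. Its difference was 0.01 ± 0.030 for genotype (limma adjusted p = 0.965) and -0.07 ± 0.031 for lithium against vehicle (adjusted p = 0.423). Ncan differed by 0.03 ± 0.047 for genotype, -0.03 for fluoxetine and -0.01 for lithium. Tenascin-R (Tnr), which crosslinks the net proteoglycans, stood at -0.02 ± 0.066, -0.03 and 0.03 in the same comparisons.

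The link proteins Hapln1 and Hapln4 tie proteoglycans to hyaluronan. Hapln4 stood at 0.11 ± 0.083 for genotype (limma adjusted p = 0.655), with counts from 1879 to 2667 (median 2331) in WT and from 2122 to 2822 (median 2451) in HT vehicle. Hapln1 stood at -0.13 ± 0.093 for genotype and at 0.09 for each drug against vehicle (adjusted p = 0.604, 0.852 and 0.759). Versican (Vcan), a proteoglycan also made by oligodendrocyte precursors, was the lowest net member for genotype, at -0.15 ± 0.081 (adjusted p = 0.474), and stood at -0.20 ± 0.078 in HT lithium against WT (adjusted p = 0.173). Tenascin-C (Tnc), made by astrocytes, was the lowest net member in HT lithium against WT, at -0.22 ± 0.092 (adjusted p = 0.202). Over 44 other settings that difference ran from -0.30 to -0.081. Counts of Tnc ran from 197 to 299 (median 244) in WT and from 177 to 275 (median 203) in HT lithium, and the ranges overlapped. The WT libraries highest in Tnc, WT vehicle males 1, 2 and 3, had olfactory marker means of 1.13, 1.20 and 1.98. The part of neighbouring tissue in Tnc was not tested beyond these settings.

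Acan had the widest spread of the net genes within every group. It lies on chromosome 7 at 79053483 to 79115099 (plus strand). Counts ran from 103 to 264 (median 158) in WT, 135 to 240 (median 162) in HT vehicle, 96.0 to 266 (median 137) in HT fluoxetine and 82.3 to 259 (median 165) in HT lithium. The 5 highest libraries, between 223 and 266, had olfactory marker means between 0.997 and 1.98 (log2, centred on all libraries). Of the 5 lowest, between 82.3 and 108, 4 had olfactory means from -1.49 down to -3.41, and WT vehicle male 1 stood apart with an olfactory mean of 1.13. High Acan thus went with high olfactory markers in most of these libraries, and the part of neighbouring tissue in its level was not tested beyond the fits that follow.

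Group differences of Acan turned with these markers. HT lithium stood at -0.11 ± 0.240 from WT (limma adjusted p = 0.848), and at 0.36 ± 0.126 with olfactory and striatal means as covariates (adjusted p = 0.202). Lithium against vehicle in HT went from -0.22 ± 0.257 to 0.26 ± 0.134 in the same way (adjusted p = 0.769 and 0.584). Without the 8 libraries with low olfactory markers these values were 0.17 ± 0.206 and 0.20 ± 0.201 (adjusted p = 0.805 and 0.860), and fluoxetine against vehicle went from -0.19 to 0.16. No direction can therefore be given for Acan in a drug comparison.

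Meningeal and perineuronal members were set against each other as a score per library, the mean of the 11 meningeal members minus the mean of the 8 perineuronal members (log2, each gene centred on all libraries). In WT vehicle it averaged 0.05 ± 0.202 (SD, n = 8), against -0.06 ± 0.087 (SD, n = 6) for HT vehicle. Under fluoxetine it averaged 0.03 ± 0.11 (SD, n = 8), and under lithium -0.04 ± 0.174 (SD, n = 7). Libraries ran from -0.19 to 0.34 in WT, -0.21 to 0.06 in HT vehicle, -0.13 to 0.20 in HT fluoxetine and -0.24 to 0.26 in HT lithium. The ranges overlapped in all 4 groups, and the distances between group means were smaller than the spread within groups of 0.151 (SD). The meningeal mean alone went from 0.08 in WT to -0.04 for HT vehicle, 0.02 under fluoxetine and -0.08 under lithium, and the perineuronal mean from 0.03 to 0.02, -0.01 and -0.04. Both means were thus lowest under lithium, and their difference separated no group. The 11 meningeal members include Col6a1 and Col6a2, which went opposite to the others for genotype and for HT lithium against WT. A score without these genes was not computed.

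**Figure D4:**
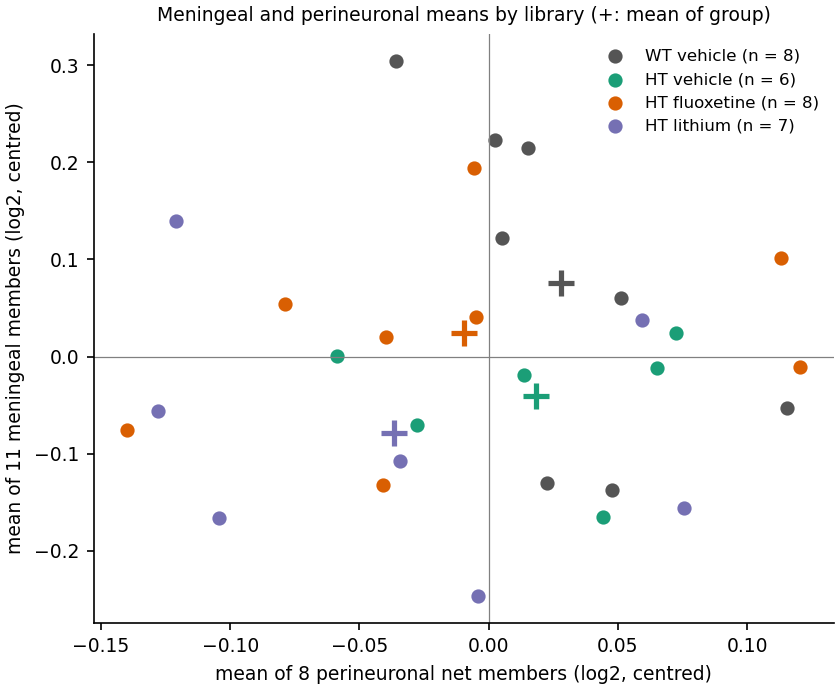
Mean of the 11 meningeal members against the mean of the 8 perineuronal net members in each of 29 libraries (log2, each gene centred on all libraries), with crosses at the group means. The meningeal axis spans a wider range than the perineuronal one, and the 4 groups overlap on both.

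In all, 6 relations between single genes were computed over the 29 libraries after removing the mean of each group of genotype, treatment and sex. Permutation tests used 100000 resamples and were adjusted over the 6. They shuffled the remaining values freely and made no allowance for the 8 means removed, so their p-values are too small. The labels name 1 batch for all libraries, so no value within batches applies. Col1a1 and Col3a1 rose and fell together (Pearson r = 0.70, adjusted permutation p = 0.00012; Spearman rho = 0.71, adjusted permutation p = 0.0003), and r was 0.63 without WT vehicle males 1 and 4, the libraries farthest out in Col1a1. Col1a1 also followed Slc13a4, a transporter gene of meningeal fibroblasts that is no member (r = 0.65, adjusted permutation p = 0.00039; rho = 0.54, adjusted permutation p = 0.00759; r = 0.52 without the same libraries). Col4a1 and the endothelial gene Cldn5 showed no relation past the threshold (r = 0.30, adjusted permutation p = 0.112; rho = 0.25, adjusted permutation p = 0.198; r = 0.24 without HT fluoxetine male 1 and WT vehicle female 4).

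Across libraries, Acan ran opposite to genes it is usually found with, in values from which olfactory marker means were not removed. Its r was -0.50 with Hapln4 (adjusted permutation p = 0.00918; rho = -0.47, adjusted permutation p = 0.0154) and -0.55 with Pvalb, the gene of parvalbumin (adjusted permutation p = 0.00322; rho = -0.48, adjusted permutation p = 0.0154). Without HT fluoxetine females 1 and 2, r was -0.37 with Hapln4 (permutation p = 0.0549) and -0.39 with Pvalb (permutation p = 0.0429). Both relations kept their sign at a smaller size, and that with Hapln4 no longer reached an unadjusted p of 0.05. The permutation p with Pvalb lay close to 0.05 and makes no allowance for the group means removed, so it does not show that this relation held. The 5 libraries highest in Acan had Pvalb counts between 268 and 477, and the 5 lowest between 388 and 549. Olfactory marker means lay between 0.997 and 1.98 in the 5 highest and between -3.41 and 1.13 in the 5 lowest. The part of neighbouring tissue in these relations was not tested. Between Col1a1 and Acan, r was -0.30 (adjusted permutation p = 0.112; rho = -0.27, adjusted permutation p = 0.194; r = -0.19 without WT vehicle males 1 and 4).

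**Figure D5:**
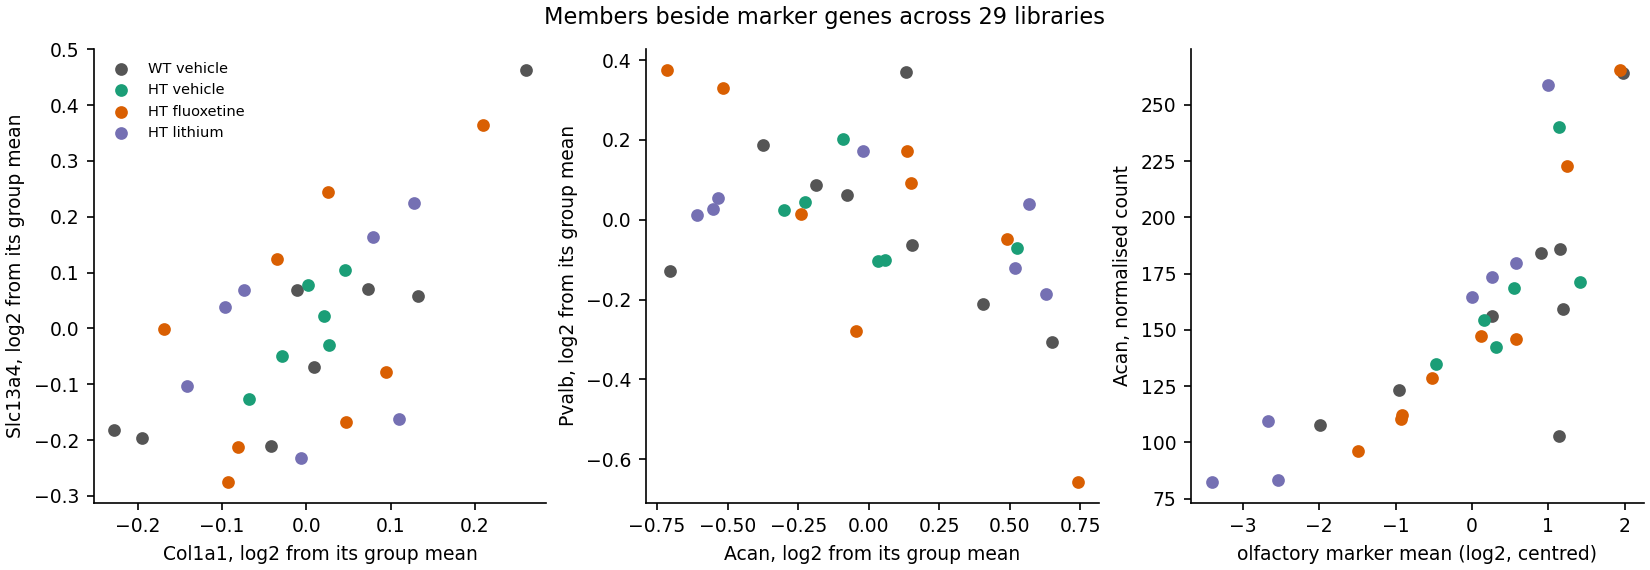
Col1a1 against Slc13a4 and Acan against Pvalb as log2 distance from the mean of each library's group, and Acan counts against the olfactory marker mean, one point per library. Col1a1 and Slc13a4 rise together (r = 0.65), and Acan and Pvalb run opposite (r = -0.55). Acan tends to be higher where the olfactory mean is higher, with scatter. WT vehicle male 1 (103 at 1.13) and WT vehicle male 2 (159 at 1.20) are among the departures.

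Between the drugs themselves, lithium against fluoxetine in HT, the lowest member after Mmp14 was Lum, at -0.25, followed by Col6a2 at -0.20 and Tnc at -0.19 (limma adjusted p = 0.985 for each). The highest differences were those of Mmp17 (0.15) and Col4a1 (0.12). The meningeal members stood at a median of -0.14 (9 of 11 negative), and the perineuronal members at -0.01 (5 of 8 negative), where 49.4% of all genes were negative. In HT fluoxetine against WT vehicle, Col6a2 was the highest member, at 0.35, and Nid2 and Col5a1 the lowest, at -0.21 and -0.20. The meningeal median was -0.11 there and the perineuronal median -0.04.

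No member differed past the threshold between females and males. Over the 4 groups, 0 of 38 were called between females and males, where 46 of all genes were (0.257%), with 3 members under an unadjusted p of 0.05 and 0 called by edgeR or DESeq2. Fn1 was the highest glycoprotein, at 0.16 ± 0.055 (female minus male, limma adjusted p = 0.316), and Col3a1 the lowest collagen, at -0.14 ± 0.066 (adjusted p = 0.581). The genotype difference differed between the sexes for 0 members (0.0% of all genes), the lithium difference for 0 (0.0%) and the fluoxetine difference for 0, where 19 of all genes were called (0.106%). edgeR and DESeq2 called 0 members in these 3 tests. Vcan stood highest for fluoxetine, with a female minus male difference of 0.35 ± 0.161 (adjusted p = 0.332), and Timp4 lowest of the inhibitors, at -0.25 ± 0.116 (adjusted p = 0.333).

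Other genes of the same pathways were read from 6 lists. Among 16 genes of collagen processing, P4ha1, a subunit of the prolyl hydroxylase that collagen needs to fold, rose in HT lithium against WT (0.20 ± 0.039, limma adjusted p = 0.00672). It was the only gene of the 6 lists called there, where 340 of all genes were (1.9%), so the call describes P4ha1 and not the lists. Its counts ran from 1036 to 1324 (median 1137) in WT, 1085 to 1359 (median 1242) in HT vehicle, 1196 to 1412 (median 1277) in HT fluoxetine and 1238 to 1391 (median 1317) in HT lithium, with overlap. It passed in 41 of 44 other settings, and not with the meningeal covariate (0.19, adjusted p = 0.0855) or without the libraries with high or low markers (0.18 and 0.22, adjusted p = 0.121 and 0.0629). P4ha1 thus stood higher in a group in which 9 of 11 meningeal members had a negative difference.

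No gene of the other 5 lists passed in any of these comparisons. For genotype, Itgb1, the shared beta chain of many matrix receptors, stood at -0.16 ± 0.039 (limma adjusted p = 0.0670), and Chpf, which polymerises chondroitin chains, at 0.17 ± 0.045 (adjusted p = 0.0911). The leaders of the remaining lists for genotype were Pcolce (-0.28), Col9a2 (-0.18), Agrn (0.11) and Adamts9 (-0.23). For fluoxetine against vehicle they were Bmp1 (-0.19), Col5a3 (-0.16), Agrn (-0.12), Adamts17 (-0.22), Csgalnact1 (0.11) and Itgb1 (0.13), with adjusted p of 0.425 or more. For lithium against vehicle they were Bmp1 (-0.19), Col8a2 (-0.25), Lama5 (-0.26), Adamts15 (-0.30), Xylt1 (0.15) and Itgb1 (0.11), with adjusted p of 0.249 or more. In HT lithium against WT, Serpine2, a serine protease inhibitor, stood at -0.18 ± 0.050 (adjusted p = 0.0642), and Col9a2, Lama5, Chpf and Itgb8 at -0.22, -0.20, 0.14 and -0.19. Itgb1 thus stood below 0 for genotype and above 0 for both drugs, in differences that share the HT vehicle libraries.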

How the data were processed

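Prefrontal cortex RNA of 29 libraries was sequenced after poly(A) selection with a stranded kit, per the labels' protocols. The deposited values are a signal: read counts that the authors divided by 1 size factor per library, since 100.0% of values were whole multiples of a library's step within 0.001. The submitters' processing notes name Salmon 0.11.2, R 3.6.0, DESeq2 1.19.11 and GRCm38, without saying what each did. Which annotation was used, whether counting used strand and any filter are not given in the sources used here. Recovered reads were between 22.81 M and 31.71 M per library, and 0 columns of per-sample values were unused. Of 18240 identifiers, 18227 matched a name in GENCODE M21.

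Samples were grouped by genotype, treatment and sex from the labels into 8 groups. The 38 members and all lists were chosen with earlier results of these data known. The main test was limma 3.58.1 in R 4.3.3 on log2(value + 1), with 8 group means over all libraries, 21 residual degrees of freedom and an intensity trend. It covered 17881 genes that reached 10 in 3 or more libraries, with Benjamini-Hochberg adjustment and a threshold of 0.05. Group means weight the sexes equally. The fit was tested on simulated data with known changes. The values are not counts as deposited, so edgeR 4.0.16 (quasi-likelihood) and DESeq2 1.42.0 on the recovered reads were alternatives, as were other scalings, pseudocounts, filters, covariates, a replicate block and leaving out each library. Leaving out libraries with high or low tissue markers was chosen after seeing the data.

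Genes were named by rule: members past the threshold, a fixed set of members of each role, the highest and lowest difference per role and comparison, and the called or smallest-p genes of each further list. Libraries named individually beyond this were chosen after their values were seen. Relations, scores and figures were computed in Python 3.11.15 with scipy 1.17.1.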

Additional observations from a re-analysis of the deposited data

Results flagged for a closer look

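Of 152 groups of libraries tested for 1 value far from the rest (38 members in each of 4 groups), 9 stood out. Chance flags about 1 in 20, so this number is close to the chance rate. Fmod was highest in HT vehicle male 1, at 957.6 against 832.3 to 861.6 in the other HT vehicle libraries, and in HT lithium male 1, at 989.0 against 692.6 to 817.8. Col4a1 was highest in WT vehicle female 4, at 3012 against 2067 to 2461. Lamc1 was lowest in HT fluoxetine male 4, at 1031 against 1214 to 1348. Mmp17 was lowest in HT fluoxetine female 1, at 4250.3 against 6163 to 7502. Timp3 was lowest in HT lithium male 3, at 2407 against 2722 to 2921, and Timp4 in WT vehicle male 1, at 453.3 against 499.7 to 529.3. Acan was highest in HT vehicle female 2, at 240.3 against 135.0 to 171.4, and Hapln1 in HT vehicle male 2, at 891.5 against 627.7 to 699.4. All values are normalised counts, and no cause was tested.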

How the results depend on the processing

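Counts of members called between HT vehicle and WT vehicle went from 0 to 1 (Mmp14) with a filter at 50, with olfactory and striatal marker means as covariates and with DESeq2, and ran from 0 to 1 when single libraries were left out. For HT fluoxetine against WT, the count of 1 went to 0 with only the groups compared in the fit and when libraries with high or with low markers were left out, and was 1 without any single library. For HT lithium against WT, the count of 3 went to 6 with DESeq2 (adding Bgn, Col3a1 and Fmod) and to 1 (Mmp14) with the meningeal covariate and without the libraries with high or with low markers. It ran from 2 to 5 when single libraries were left out, with 5 without WT vehicle male 4. For any difference among the 4 groups, the count of 2 went to 1 with the meningeal covariate (Timp2) and without the libraries with high or with low markers (Mmp14), and was 2 without any single library. The other comparisons had 0 members called in every setting run. No called difference changed sign, and the causes of these changes were not tested. Differences that were not called did: of 152 (38 members in 4 comparisons), 69 changed sign in at least 1 setting, 6 of them among the 74 larger than their standard error. In HT lithium against WT, the meningeal covariate took Dcn to 0.12, Ogn to 0.078, Fn1 to 0.064 and Hapln4 to -0.020, and leaving out the libraries with high or low markers took Mmp15 to 0.0016 and 0.0032. Lithium against vehicle in Adamts4 ran from -0.0011 to 0.24 when single libraries were left out. Over the 44 other settings, HT lithium against WT ran from -0.24 to -0.071 in Vcan and from -0.19 to -0.017 in Col1a2. In Nid1 the same comparison ran from -0.22 to -0.058. Acan turned to 0.26 for lithium and 0.36 for HT lithium against WT with olfactory and striatal covariates, to 0.16 for HT lithium against WT without the libraries with high markers, and to 0.16 for fluoxetine, 0.20 for lithium, 0.17 for HT lithium against WT and -0.030 for genotype without those with low markers. Without single libraries Acan ran from -0.021 to 0.22 for genotype and from -0.27 to 0.043 for HT lithium against WT. Leaving out libraries moved the meningeal minus perineuronal distance between -0.15 and -0.07 for genotype, 0.06 and 0.12 for fluoxetine, -0.05 and 0.03 for lithium, -0.15 and -0.06 for HT lithium against WT, and -0.06 and 0.03 for HT fluoxetine against WT, so the lithium and HT fluoxetine distances crossed 0.

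With the replicate number as a block, members called in HT lithium against WT went from 3 to 6 (adding Bgn, Col3a1 and Fmod) and over the 4 groups from 2 to 3 (adding Fmod, adjusted p = 0.0296), with 0, 0 and 0 for genotype, fluoxetine and lithium. Of 94 same-numbered pairs, 14 had a correlation of deviations over 0.1, with a range from -0.26 to 0.31, so the numbers were not taken to pair the samples. Between HT fluoxetine and HT lithium of the same sex, 7 of 7 pairs were positive and 5 were over 0.1. Numbers come from the sample titles, which for HT vehicle females differ from those in the library names, and a block by library name was not run.

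Of the named genes, Mmp14 in HT lithium against WT passed in 44 of 44 settings, Timp2 in 40 and Sparc in 29. All genes called in that comparison fell from 340 to 26 without the libraries with high markers, 56 without those with low markers, 47 with the meningeal covariate and 154 with the olfactory and striatal covariates, and rose to 573 with DESeq2. A fit restricted to the groups compared does not apply to the sex and 4-group tests. Lum and Mmp2 had the fewest counts of the members, so counting error is largest there.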
